A study of Mus with 8 samples.

Results

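The erythroid progenitors of 14-day-old mice were taken here as the cells that carried the most RNA of Klf1 and Car1 in the lineage-negative, Kit-positive (LK) fraction. A barcode counted as a cell if it held at least 7500 gene UMI (unique molecular identifiers, each standing for 1 captured RNA molecule) and at most 10% of them from mitochondrial genes. A cell counted as erythroid if Klf1 and Car1 together gave at least 5 UMI per 10000 gene UMI. The rule found 1408 cells among the 6296 cells of the 2 P14 LK libraries, out of 35549 cells in all 8 libraries of the series. Of the 1408 cells, 481 came from the Ifnar+/- library and 927 from the Ifnar-/- library. The remaining cells of the same libraries, 1930 and 2958, are called the other LK cells below.

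Erythroid progenitors are the precursors that commit the multipotent progenitor pool to red blood cells. Under the transcription factors Gata1 and Klf1 and signals from the erythropoietin receptor and Kit, they stop expressing progenitor and myeloid genes, take up iron through the transferrin receptor, build heme and assemble a specialised membrane before they fill with globin. Type I interferon acts through the Ifnar1 and Ifnar2 receptor chains and a transcription factor complex that includes Irf9 to turn on antiviral and antigen-presentation genes in most cells.

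The study measured RNA and surface proteins together in single blood progenitors (CITE-seq, on the 10x Genomics 3' platform) from mice with 1 or no working copy of the type I interferon receptor gene Ifnar, on the day of birth (P0) and 14 days later (P14). At each age and for each genotype, LK cells and lineage-negative, Sca1-positive, Kit-positive (LSK) cells were each profiled in 1 library. The 2 groups described here are P14 LK Ifnar+/- and P14 LK Ifnar-/-, and the P0 LK libraries of both genotypes are set beside them. The labels name no organ, strain, sex or number of mice per library, and they describe no wild-type group, so both genotypes carry at least 1 mutant allele. With 1 library per group there is no replicate spread: no p-value is given, and every 95% interval below covers counting error only. Organ, litter and library cannot be told apart from age or genotype.

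The erythroid cells held 24927674 gene UMI in the Ifnar+/- library and 48194503 in the Ifnar-/- library. Their median depth was 47764 and 45854 UMI per cell, against 36844 and 31357.5 in the other LK cells. Mitochondrial genes took a median of 3.58% and 3.56% of their UMI. The sexes were mixed unevenly: among erythroid cells with RNA of only Xist or only Y-linked genes, 67.0% were Y-linked in the Ifnar+/- library and 40.3% in the Ifnar-/- library, and in the other LK cells the shares were 62.9% and 33.0%. Any 2 of the 8 libraries shared 1 to 10 cell barcodes, and the 2 P14 LK libraries shared 6 barcodes, none of them erythroid in both. Ifnar1, the gene taken here to be the one the labels call Ifnar, was read at 14.8 CPM (the gene's share of all gene UMI of the cell set, on the counts-per-million scale) in Ifnar+/- erythroid cells and 13.01 CPM in Ifnar-/- erythroid cells. The labels do not say which part of the gene is altered, so its 3' counts do not check the genotype labels.

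The cells carried the markers of the erythroid lineage. Klf1 (chromosome 8, 84901982 to 84905291), the erythroid zinc finger activator, was read at 170 CPM (95% interval 165 to 175) in Ifnar+/- cells and 177 CPM (173 to 180) in Ifnar-/- cells. Car1 (chromosome 3, 14766214 to 14808365), a carbonic anhydrase of early red cells, was read at 1878 and 1673 CPM. Those 2 genes chose the cells, so their values describe the rule and nothing beyond it. Rhd (chromosome 4, 134864536 to 134896172) and Rhag (chromosome 17, 40811099 to 40844094), the Rh blood group protein and its partner in the membrane, were not used by the rule. Rhd was read at 96.8 CPM (93.0 to 101) and 101 CPM (98.3 to 104), against 10.2 and 20.9 CPM in the other LK cells. Rhag was read at 63.2 and 65.4 CPM, against 6.99 and 12.3 CPM. Coordinates are RefSeq gene spans on GRCm38.

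**Figure D1:**
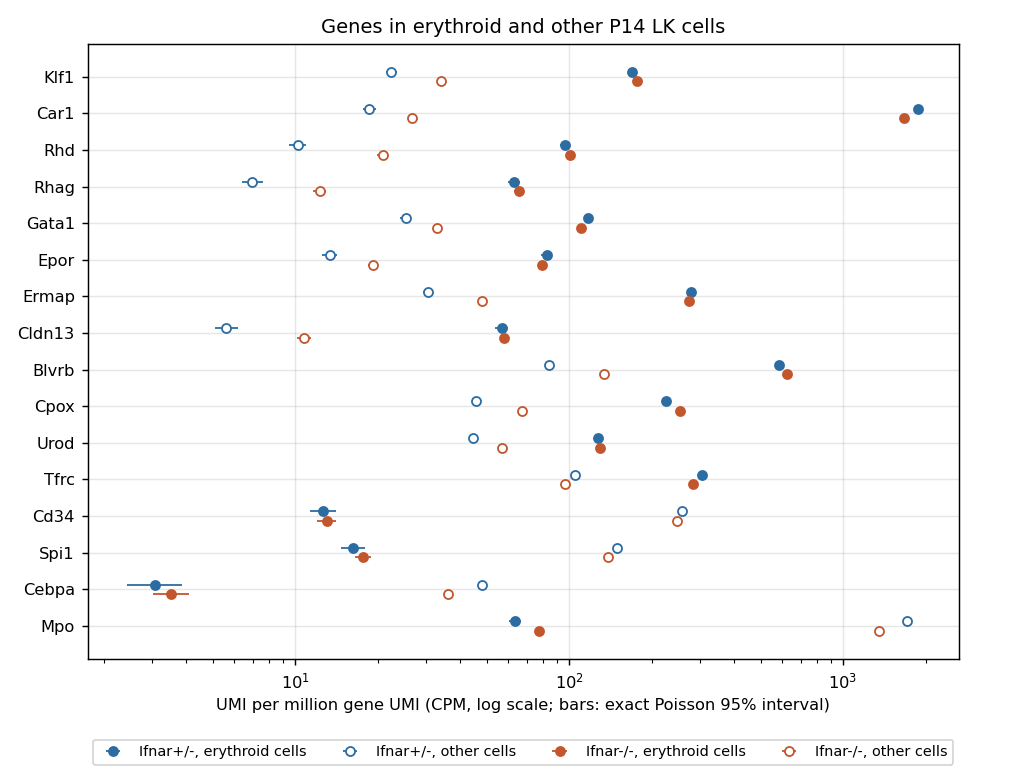
Expression of 16 genes in the erythroid cells (filled points) and the other LK cells (open points) of the 2 P14 LK libraries, in CPM on a log axis with exact Poisson 95% intervals. Rhd stood at 96.8 and 101 CPM in erythroid cells against 10.2 and 20.9 CPM in the other cells, and Cd34 at 12.7 and 13.03 CPM against 259 and 248 CPM.

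Single cells varied in these markers. The sum of Klf1 and Car1 ran from 5.01 to 62.8 per 10000 gene UMI in Ifnar+/- erythroid cells, with a median of 17.1, and from 5.03 to 59.9 with a median of 16.6 in Ifnar-/- cells. Car1 made up most of it: its median was 15.5 and 15.1 per 10000, and that of Klf1 1.42 and 1.55. Rhd RNA was caught in 64.0% and 66.2% of erythroid cells and in 7.10% and 10.2% of the other LK cells, which were shallower. Gata1 RNA was caught in 94.0% and 94.9% of erythroid cells and Epor RNA in 88.1% and 87.6%. Barcodes under 100 UMI, which hold free RNA, gave Car1 at 369 and 435 CPM, far below the level in erythroid cells and above that in the other LK cells.

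The threshold did not mark an edge in the data. Just inside it, at 5 to 6 per 10000, lay 21 Ifnar+/- and 44 Ifnar-/- cells, and just outside, at 4 to 5, lay 22 and 49. Rhd was read at 85.3 and 114 CPM just inside and 42.4 and 137 CPM just outside. Cells at 2 to 3 per 10000, 58 and 124 of them, still held Rhd at 103 and 102 CPM. Below 1 per 10000, where 1731 Ifnar+/- and 2531 Ifnar-/- cells lay, Rhd was read at 0.865 and 1.26 CPM. So the other LK cells included a minority with erythroid RNA, and ratios against them are smaller than against cells without that RNA. Set only against the cells below 1 per 10000, a comparison chosen after the data were seen, Rhd was higher in erythroid cells by 6.79 and 6.31 on the log2 scale and Rhag by 5.51 and 4.98. In that comparison 2318 of 12213 genes (19%) stood at least 2-fold below and 513 (4.2%) at least 2-fold above those cells. Against all other LK cells the same values were 3.25 and 2.28 for Rhd and 3.18 and 2.41 for Rhag.

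Over all 12352 genes with enough UMI, 376 (3.04%) were at least 2-fold higher in the erythroid cells than in the other LK cells of both libraries, and 2173 (17.6%) were at least 2-fold lower. Because the erythroid cells were chosen by 2 of their own genes, what follows is a description of them and no test. Ratios are of CPM after 0.5 counts were added to each sum, with at least 50 UMI in a cell set of each library. Scaling by TMM factors in place of totals shifted these log2 ratios by 0.20, from a median over all genes of -0.11 and -0.14 to 0.09 and 0.07.

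Of 22 transcription factors known from red cell development, 5 were at least 2-fold higher in both libraries and none was 2-fold lower, beside 3.04% and 17.6% of all genes. One of the 5 is Klf1, whose level was set by the rule. Gata1, which starts and maintains the programme, was read at 117 and 111 CPM against 25.3 and 33.0 CPM in the other LK cells. Gfi1b, a transcriptional repressor that acts within the erythroid and megakaryocyte lineages, was read at 108 and 99.3 CPM against 27.0 and 31.6 CPM. Nfia, a factor that favours the red cell fate, was read at 74.8 and 71.8 CPM against 13.5 and 17.5 CPM, and Cited4, a coactivator, at 40.4 and 42.0 CPM against 5.48 and 9.03 CPM. The factors shared with earlier progenitors varied. On the log2 scale Tal1 lay at 1.02 and 0.85, Lmo2 at -0.01 and -0.07, Myb at 0.22 and 0.16, and Lyl1 at -0.80 and -0.79.

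Of 19 genes of erythropoietin and Kit signalling, Epor was the 1 at least 2-fold higher in the erythroid cells of both libraries, and 3 were 2-fold lower, a share near the 17.6% of all genes that were lower. Epor, the erythropoietin receptor, was read at 82.7 and 79.8 CPM against 13.4 and 19.3 CPM in the other LK cells. Kit, the receptor by which the fraction was sorted, was read at 216 and 173 CPM against 188 and 169 CPM. The 3 lower genes were the inhibitors Socs3 and Sh2b3 and the survival gene Bcl2l1, which was read at 5.30 and 5.60 CPM against 12.7 and 12.6 CPM. Of 16 iron genes, 6 were 2-fold higher, beside 3.04% of all genes, and 3 were 2-fold lower, beside 17.6%. Tfrc, the transferrin receptor, was read at 304 and 282 CPM against 105 and 96.9 CPM. The iron exporter Slc40a1 was read at 34.3 and 30.9 CPM against 6.07 and 7.87 CPM, and the other higher genes were Tfr2, Slc11a2, Steap3 and Glrx5, which sense, import, reduce and pass on iron. The lower genes were Hfe, Trf and Ncoa4, which carries ferritin to its breakdown and was read at 25.8 and 26.4 CPM against 73.9 and 67.8 CPM.

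Enzymes of heme synthesis after the first step were higher, while the erythroid form of the first enzyme was almost absent. Of 17 heme genes, 8 were at least 2-fold higher in both libraries, beside 3.04% of all genes. The 2 that were 2-fold lower are near the 17.6% of all genes. Alad, the second enzyme of the pathway, was read at 166 and 187 CPM against 44.9 and 62.6 CPM, and Cpox, a late one, at 226 and 255 CPM against 45.8 and 67.4 CPM. Urod, Ppox and Fech, further enzymes of the pathway, lay between 1.05 and 1.69 higher on the log2 scale. Slc25a38, a mitochondrial glycine carrier, and Blvrb, a biliverdin reductase, were also among the 8. Alas2, the rate-limiting erythroid enzyme, gave only 0.120 and 0.104 CPM. Alas1, its counterpart in all tissues, was lower in the erythroid cells, at 22.9 and 22.01 CPM against 131 and 101 CPM.

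Membrane and blood group genes showed the broadest difference of the erythroid lists. Of 24, 18 were at least 2-fold higher in both libraries and 1 was 2-fold lower, beside 3.04% and 17.6% of all genes. The median log2 ratios were 2.70 and 2.09. Ermap, a blood group protein, was read at 278 and 274 CPM against 30.5 and 47.9 CPM. Aqp1, the water channel, was read at 278 and 248 CPM against 36.6 and 54.2 CPM, and Cldn13, a claudin of erythroid precursors, at 56.8 and 57.9 CPM against 5.61 and 10.8 CPM. The cytoskeleton genes Ank1, Sptb, Add2 and Epb42 were all among the 18, as were Kel, Xk and Icam4. Slc4a1, the band 3 anion exchanger of mature red cells, had no UMI in either library. The lower gene was Slc2a1, a glucose transporter, at 2.05 and 2.55 CPM against 8.79 and 8.62 CPM.

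Adult globin RNA was read at low levels. Hba-a1, an alpha globin gene, was read at 20.8 and 15.8 CPM against 3.27 and 3.60 CPM in the other LK cells. Its 10 highest cells held 55.5% of its UMI in the Ifnar+/- erythroid cells and 38.6% in the Ifnar-/- ones. Hbb-bt, a beta globin gene, went the other way, at 10.95 and 14.6 CPM against 130 and 118 CPM. In the near-empty barcodes of the 2 libraries Hbb-bt was read at 132 and 105 CPM. Hba-a1 and Hba-a2, and Hbb-bs and Hbb-bt, are near-identical copies whose reads the counting could split, so the split within each pair is uncertain. Of 17 genes linked to late red cell maturation, 7 were 2-fold higher and 1 was lower, beside 3.04% and 17.6% of all genes. Among the 7, Nxpe2 was read at 62.5 and 56.9 CPM against 7.45 and 11.5 CPM, and Trim58, a ubiquitin ligase of late erythroblasts, at 5.09 and 5.75 CPM against 1.63 and 2.57 CPM.

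By size of difference in both libraries, the genes farthest above the other LK cells after Car1 were Col5a1, Aldh1a7, Prss50, Gm15915, Acmsd, Aldh1a1, Zg16, Ermap, Ces2g, Sfrp4, Ephx2, Acsl6, Tspo2 and Slc25a21. Col5a1, a fibrillar collagen chain, was read at 54.2 and 59.5 CPM against 5.96 and 6.69 CPM. Prss50, a serine protease, was read at 108 and 89.8 CPM against 10.3 and 14.7 CPM. Tspo2, a membrane protein of erythroid cells that binds cholesterol, was read at 148 and 138 CPM against 17.3 and 24.9 CPM. Aldh1a1 and Aldh1a7, paired aldehyde dehydrogenases, were read at 13.9 and 15.2 CPM and at 8.22 and 8.90 CPM, and as close copies they may share reads.

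Most genes of early progenitors were lower. Of 20, 13 were at least 2-fold lower in both libraries, beside 17.6% of all genes, and Slamf1 was the 1 that was 2-fold higher. Cd34 was read at 12.7 and 13.03 CPM against 259 and 248 CPM. The myeloid factors Spi1 and Cebpa, at 16.3 and 17.8 CPM and at 3.09 and 3.53 CPM, stood against 150 and 138 CPM and against 48.1 and 36.0 CPM. Gata2, the factor that Gata1 replaces, was near its level in the other cells at 110 and 84.5 CPM against 92.4 and 87.7 CPM. Slamf1, which encodes CD150, was read at 21.1 and 18.8 CPM against 8.18 and 8.46 CPM.

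Markers of other blood cell types were low in the erythroid cells but not at 0. The 12 neutrophil genes summed to 206 and 231 CPM, against 5628 and 4662 CPM in the other LK cells. At least 2-fold lower were 10 of 10 tested genes, beside 17.6% of all genes, and 3 and 2 of the 12 were at 0. Mpo, the main granule enzyme, gave 63.6 and 77.5 CPM, and its 10 highest cells held 73.9% and 59.5% of those UMI. The 12 megakaryocyte genes summed to 73.1 and 83.7 CPM against 401 and 422 CPM. Of 10 tested genes 6 were 2-fold lower, beside 17.6% of all genes, and 2 of the 12 were at 0 in each library. Gp5, a platelet glycoprotein, was the exception at 27.3 and 27.1 CPM against 10.6 and 14.0 CPM. The 10 monocyte genes summed to 19.3 and 18.6 CPM against 376 and 273 CPM, and the 12 lymphoid genes to 7.70 and 10.4 CPM against 208 and 224 CPM. The 10 mast cell and basophil genes summed to 9.59 and 8.96 CPM against 163 and 117 CPM. The macrophage list summed higher in erythroid cells, at 36.1 and 33.0 CPM against 14.4 and 12.5 CPM, and Slc40a1 alone gave 34.3 and 30.9 CPM of that. Hepatocyte genes summed to 4.73 and 5.73 CPM against 52.8 and 45.6 CPM, with 6 of 10, among them Alb, at 0 in the erythroid cells. What these RNAs contribute to the erythroid values was not tested.

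The genes lowest relative to the other LK cells included markers of granulocytes and lymphocytes. By the same size rule they were Gm21188, BE692007, Prg2, H2-Aa, Ugt1a7c, Rag1, Ly6d, Gm19331, S100a8 and Cyp11a1. Gm21188, BE692007 and Rag1 had no UMI in the erythroid cells, and H2-Aa, Ugt1a7c, Ly6d, Gm19331 and Cyp11a1 had 0 to 2 in each library. All of these passed the minimum of 50 UMI through the other LK cells alone. Their ranks rest on the added 0.5 counts and on the depth of the other LK cells. Prg2, the eosinophil major basic protein, was read at 0.401 and 0.539 CPM against 33.2 and 32.4 CPM. S100a8, a neutrophil calcium-binding protein, was read at 0.963 and 1.06 CPM against 46.7 and 48.5 CPM. Rag1, the recombinase of lymphocytes, had no UMI in the erythroid cells and 0.979 and 1.79 CPM in the other LK cells.

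Surface protein was read independently of the rule, through 10 antibody tags, and 6 of the 10 differed at least 2-fold in median between erythroid and other cells in both libraries, 1 higher and 5 lower. CD150 was the higher one. Its median was 338 tag UMI per cell in Ifnar+/- erythroid cells, with quartiles of 106 and 576, against 11 in the other LK cells, a 30.7-fold difference. In the Ifnar-/- library it was 265, with quartiles of 90 and 479, against 13, a 20.4-fold difference. As a share of all tag UMI of the cell set, CD150 was 5.43-fold and 4.14-fold higher. CD150 protein and its RNA, Slamf1, therefore differed in the same direction. CD34 was the tag with the largest difference downward in raw medians, with values of 16 against 221 (13.8-fold lower) and 17 against 162 (9.53-fold lower), as for Cd34 RNA. As a share of all tag UMI it was 6.31-fold and 5.08-fold lower, and a streptavidin-PE tag, whose target the labels do not give, was 9.37-fold and 8.68-fold lower.

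Of the remaining tags, CD16/32, CD41 and CD135 were lower on both scales. CD16/32, the Fc receptors of myeloid progenitors, had medians of 17 against 71 and 15 against 41. CD41, the product of Itga2b and a mark of megakaryocyte potential, had medians of 13 against 31 and 11 against 23, and CD135, the Flt3 receptor, 5 against 13 and 6 against 13. The streptavidin-PE tag had medians of 11 against 85 and 10 against 68. CD48 was lower by less than 2-fold, at 3488 against 5826.5 and 3137 against 4975.5. CD117, the Kit protein, had medians of 1032 against 937 and 828 against 784, and as a share of all tag UMI it was 1.80-fold and 1.66-fold higher. CD127 and CD201 had medians of 3 or 4 in all 4 sets, and by share CD201 was 2.004-fold and 2.39-fold lower. The other cells carried more tag UMI in all, with the cells' medians over all tags at 5133 against 8086.5 and 4436 against 6682.

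**Figure D2:**
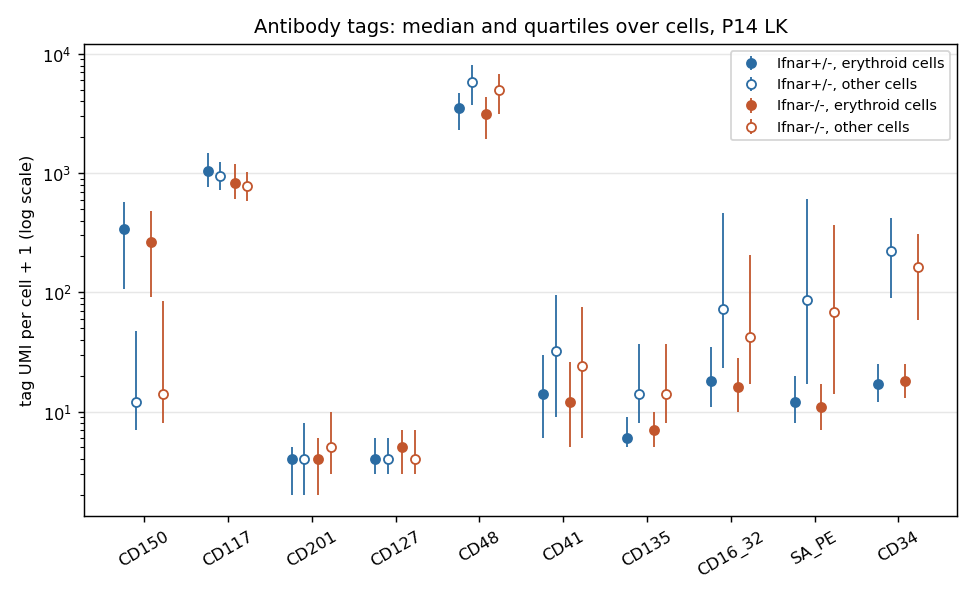
Antibody tag UMI per cell plus 1 on a log axis for the 10 tags, as medians with quartiles, in erythroid cells (filled) and other LK cells (open) of the 2 P14 LK libraries. CD150 stands far above the other cells in both libraries (338 against 11 and 265 against 13) and CD34 far below them (16 against 221 and 17 against 162).

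Erythroid cells with more Klf1 and Car1 held less RNA of early progenitor genes. The cells were split at 10, 20 and 40 of the rule's sum per 10000, which gave 81, 213, 165 and 22 cells in the Ifnar+/- library and 188, 402, 310 and 27 in the Ifnar-/- library. Between the bottom and the top set, 11 of 10088 genes (0.109%) were at least 2-fold higher in both libraries and 333 (3.30%) were 2-fold lower. Of 19 early progenitor genes, 8 were lower and none was higher. The split uses the measure that chose the cells, so this too is a description.

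Cd34 went from 28.5 CPM (23.3 to 34.6) in the bottom set through 10.7 and 10.7 CPM to 0 UMI (interval to 2.76 CPM) in the top set of the Ifnar+/- library, and from 28.1 CPM (24.8 to 31.7) through 14.3 and 3.65 to 1.55 CPM (0.188 to 5.60) in the Ifnar-/- library. Meis1, a stem cell homeobox factor, went from 51.8 to 5.24 CPM and from 46.5 to 10.1 CPM. Sox4, a progenitor factor, went from 178 to 23.96 CPM and from 121 to 32.5 CPM, and Angpt1, a ligand made by progenitors, from 80.6 to 7.49 CPM and from 62.2 to 19.4 CPM. Each of these 4 genes was lowest at the top in both libraries. CD41 tag followed, with medians of 32, 14, 9 and 4 and of 14.5, 13, 8 and 7.

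The membrane and heme lists differed between the libraries across the same sets. The median log2 ratio of top over bottom was 0.60 for 24 membrane genes and 0.52 for 16 heme genes in the Ifnar+/- library, beside -0.12 over all genes, and -0.18 and -0.10 in the Ifnar-/- library, beside -0.11. No gene of these lists was 2-fold higher in both libraries, which is near the share of all genes. Over 4 adult globin genes the median was -0.59 in the Ifnar+/- and -3.21 in the Ifnar-/- library. Hbb-bs and Hbb-bt were 2-fold lower at the top in both, beside 3.30% of all genes. Hba-a1 and Hba-a2 stood at 0.08 and 0.49 in Ifnar+/- cells and at -3.17 and -3.27 in Ifnar-/- cells. Over 17 late maturation genes the medians were 0.24 and -0.56. Gata1 was read at 117 CPM at the bottom and 139 CPM at the top in the Ifnar+/- library, and at 98.7 and 108.5 CPM in the Ifnar-/- library. Rhd differed between the libraries, with 77.8 CPM (69.0 to 87.4) at the bottom and 189 CPM (166 to 213) at the top in Ifnar+/- cells, but 94.4 and 96.9 CPM in Ifnar-/- cells. The top sets hold 22 and 27 cells. Neutrophil genes summed to 333, 115, 292 and 59.1 CPM across the Ifnar+/- sets and 470, 248, 82.9 and 86.8 CPM across the Ifnar-/- sets, and their part in these differences was not tested. CD150 tag had medians of 330, 331, 364 and 57 in the Ifnar+/- sets and of 296.5, 260, 269.5 and 241 in the Ifnar-/- sets.

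**Figure D3:**
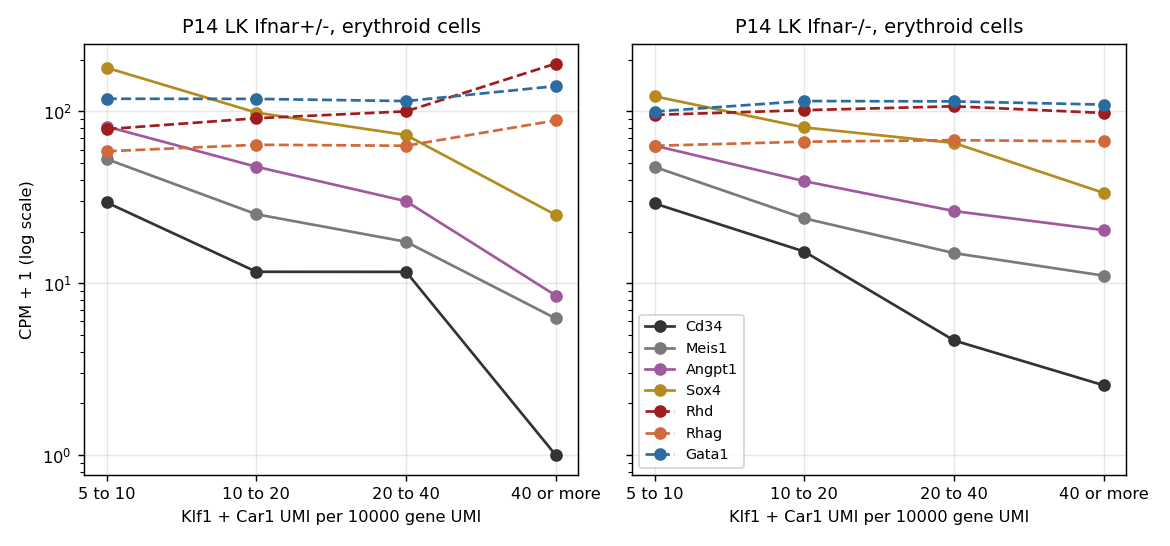
Level of 7 genes in erythroid cells split by Klf1 plus Car1 per 10000 gene UMI, as CPM plus 1 on a log axis, for each genotype. The progenitor genes Cd34, Meis1, Angpt1 and Sox4 (solid) are lower at the top than at the bottom in both libraries, while of the dashed genes Gata1 lies between 98.7 and 139 CPM and Rhd goes from 77.8 to 189 CPM in Ifnar+/- cells only.

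More erythroid cells than other LK cells carried RNA of G2 and M phase genes, while the shares for G1 and S phase genes were close. After each cell was thinned to 2000 UMI to equal the depths, at least 3 UMI of 20 G2 and M phase genes were found in 56.1% (51.6 to 60.6) of Ifnar+/- and 57.2% (53.9 to 60.4) of Ifnar-/- erythroid cells. In the other LK cells the shares were 43.9% and 42.5%. For 20 G1 and S phase genes the shares were 71.9% and 74.0% of erythroid cells and 71.5% and 73.9% of the other LK cells. For the G2 and M phase genes the genotypes differed by 1.04 percentage points, with an interval from -4.51 to 6.62 that holds the counting error of the cells of 2 libraries and not the spread between mice. Without thinning the erythroid shares for the G2 and M phase genes were 91.7% and 94.4% and those of the other LK cells 90.1% and 89.1%.

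The first comparison by genotype concerns how many LK cells were erythroid. The share was 19.95% (481 of 2411, Clopper-Pearson 95% interval 18.4 to 21.6) in the Ifnar+/- library and 23.9% (927 of 3885, 22.5 to 25.2) in the Ifnar-/- library. The difference was 3.91 percentage points (1.79 to 6.003). Within cells that carried only Y-linked RNA it was 6.41 points (2.98 to 9.84), and within cells that carried only Xist 3.42 points (0.0120 to 6.65). These intervals hold the counting error of cells and not the spread between mice, which 1 library per group cannot show.

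At P0 the rule took a smaller part of the cells with erythroid RNA than at P14, and its shares there, 9.59% and 10.8% with a difference of 1.25 points (0.135 to 2.36), are not comparable with the P14 shares. In the P0 Ifnar+/- library 565 cells passed the rule, while 579, 674, 349 and 142 cells lay outside it at 1 to 2, 2 to 3, 3 to 4 and 4 to 5 per 10000. Those outside cells held Rhd at 81.1, 126, 147 and 138 CPM and Rhag at 122, 157, 158 and 141 CPM. Cells inside the rule at 10 to 20 per 10000 held Rhd at 80.6 CPM and Rhag at 129 CPM. The P0 Ifnar-/- library had 625 cells inside, and 568, 662, 401 and 160 outside with Rhd at 103, 155, 185 and 199 CPM. At P14 the corresponding outside cells numbered 75, 58, 44 and 22 in the Ifnar+/- library and 174, 124, 80 and 49 in the Ifnar-/- library. P0 erythroid cells below means the P0 cells that passed the rule, which at P0 leaves out most cells with Rhd and Rhag RNA.

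Between the genotypes, few genes differed 2-fold in the erythroid cells, and interferon targets were the largest named group among those that were lower without the receptor. Over 10768 genes, 29 (0.269%) were at least 2-fold lower in the Ifnar-/- erythroid cells and 18 (0.167%) at least 2-fold higher. The interferon target list held 12 of the 29, and 13 belonged to it or to the class I antigen presentation list. In the other LK cells 57 of 12729 genes (0.448%) were lower and 32 (0.251%) higher, and in P0 erythroid cells 90 of 10424 (0.863%) were lower and 9 (0.0863%) higher, 0.95% in all. The genotypes also differed in sex mix. Of 27 lower genes with enough UMI in both sexes, 14 were also 2-fold lower in Xist-only cells and in Y-only cells, and of 14 such higher genes 4 were higher in both. Taken alone, the Xist-only cells (139 Ifnar+/-, 480 Ifnar-/-) gave 47 higher and 14 lower genes. The Y-only cells (282 and 324) gave 9 higher and 65 lower. With an estimate of free RNA subtracted the counts in all erythroid cells were 41 higher and 29 lower. A gene needed the minimum UMI in either library, and the Ifnar-/- library held more erythroid UMI. Genes scarce in Ifnar+/- cells could pass through the Ifnar-/- library alone, as B4galt6 did with 11 and 52 UMI. So these counts do not show which direction was more common.

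The lower genes named by the rule were Rtp4, Ifit1, Isg15, Oasl1, Irf7, Ccl5, Ifi27, Tgtp2, Wdfy1 and Dhx58. The rule takes those whose interval lies farthest from no difference, with the same sign of the ratio in Xist-only and in Y-only cells. Ccl5 had no UMI in the Xist-only cells of either genotype, so its sign there came from the added counts alone. Ifi27, a mitochondrial interferon-induced protein, gave the most UMI: 668 in 270 Ifnar+/- cells and 240 in 172 Ifnar-/- cells, or 26.8 CPM (24.8 to 28.9) and 4.98 CPM (4.37 to 5.65). Its log2 ratio was -2.43 (-2.65 to -2.21). Irf7, the factor that amplifies the interferon response, gave 104 UMI in 76 cells against 22 UMI in 21 cells, a log2 ratio of -3.17 (-3.93 to -2.52). These 2 genes were spread over many cells. The rule required the same sign in both sexes. The ratios were -2.36 in Xist-only and -2.52 in Y-only cells for Ifi27, and -3.26 and -3.40 for Irf7.

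Isg15, a ubiquitin-like modifier, gave 102 UMI against 12, and Oasl1, an oligoadenylate synthetase relative that restrains Irf7, gave 88 against 10. Rtp4, a chaperone that limits viral replication, gave 79 UMI in 45 cells against 2 UMI, a log2 ratio of -5.94 (-9.33 to -4.35). Tgtp2, an interferon-induced GTPase, gave 165 UMI against 53, and Dhx58, a sensor of viral RNA, 70 against 38. Wdfy1, an adaptor of Toll-like receptor signalling that was not on the interferon list, gave 315 UMI against 206, a log2 ratio of -1.56 in erythroid cells, -1.16 in the other LK cells and -0.32 in P0 erythroid cells. In Ifnar+/- erythroid cells these 6 genes were spread over 45 to 197 cells each.

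Ccl5 and Ifit1 had most of their Ifnar+/- UMI in a single cell, as did Gm26885 and Dntt among the higher genes. All 71 UMI of Ccl5, a chemokine, in the Ifnar+/- erythroid cells lay in 1 cell, as did 11 of the 14 in the Ifnar-/- cells, so its log2 ratio of -3.25 compares single cells. Of the 78 Ifit1 UMI in Ifnar+/- cells, 57 lay in 1 cell, and without the highest cell of each library its log2 ratio was -6.38 in place of -5.92, on fewer UMI than the minimum of 50. Dntt, the terminal transferase of lymphoid progenitors, had 21 of 28 UMI in 1 Ifnar+/- cell and 63 of 120 in 1 Ifnar-/- cell, and its log2 ratio was 1.13 with all cells and 0.98 without marked doublets, on 4 and 16 UMI. When each gene's highest cell was left out of each library, an alternative chosen after the data were seen, 45 genes differed at least 2-fold, 22 higher and 23 lower, and 39 of them were among the original 47.

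**Figure D4:**
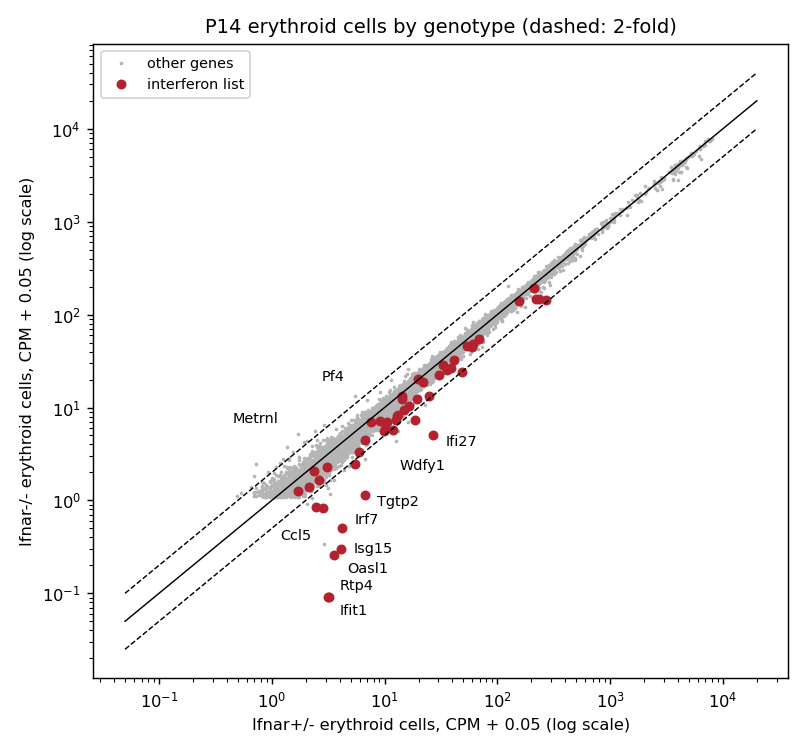
Level of each of 10768 genes in Ifnar-/- against Ifnar+/- erythroid cells at P14, as CPM plus 0.05 on log axes, with interferon list genes in red, the line of equality and dashed lines at 2-fold. Most red points lie below the line of equality, with Rtp4, Ifit1, Isg15, Oasl1 and Irf7 farthest from it, and Metrnl and Pf4 lie above it.

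The interferon list as a whole was lower in Ifnar-/- erythroid cells. Of 58 list genes with at least 20 UMI, 57 were lower, 20 of them at least 2-fold, and the median log2 ratio was -0.68 beside -0.01 over all genes. Of all 10768 genes with at least 50 UMI, 5712 were lower, and 0.269% were at least 2-fold lower. The exception on the list was Ifi35, at 0.03. In the other LK cells of the same libraries 67 of 69 genes were lower and the median was -0.58. In P0 erythroid cells 60 of 60 were lower, 43 of them at least 2-fold, and the median was -1.76. Within the P14 erythroid cells, 50 of 53 genes were lower in Xist-only cells (median -0.58) and 52 of 54 in Y-only cells (median -0.83). Summed over the list, the erythroid cells held 1926 CPM in the Ifnar+/- and 1329 CPM in the Ifnar-/- library, and the other LK cells 3347 and 2346 CPM.

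The size of the difference varied between list genes. Oas3 and Oas1a, which make the activator of RNase L, were read at 1.60 and 1.64 CPM in Ifnar+/- erythroid cells and 0.0622 CPM each in Ifnar-/- ones. Usp18, which shuts off the receptor, was read at 1.40 and 0.436 CPM. Irf9, a transducer of the interferon signal, was read at 24.9 against 13.4 CPM (log2 ratio -0.90), while Stat2 was at 9.15 against 7.03 CPM (-0.38). Lgals3bp was read at 48.1 against 24.1 CPM, and Sp100, a nuclear body protein, at 18.6 against 7.24 CPM. Ifitm3, which blocks viral entry, and Bst2, or tetherin, differed less, at 60.8 against 48.1 CPM and 68.5 against 54.4 CPM.

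**Figure D5:**
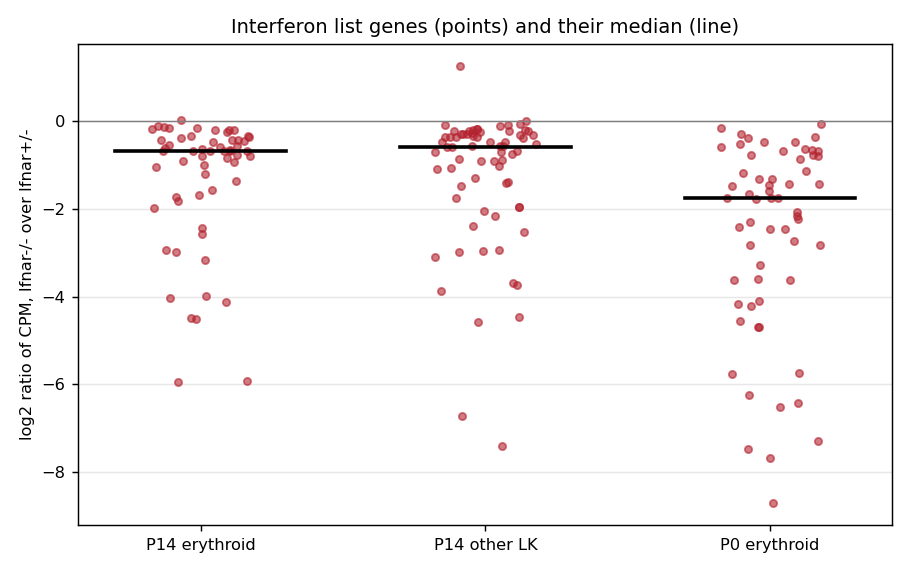
Log2 ratio of CPM, Ifnar-/- over Ifnar+/-, for each interferon list gene with at least 20 UMI (points, spread sideways for sight) and the list median (line) in 3 cell sets. The medians are -0.68 in P14 erythroid cells, -0.58 in the other P14 LK cells and -1.76 in P0 erythroid cells.

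Class I antigen presentation genes shared the direction in part. Of 18, 15 were lower in Ifnar-/- erythroid cells, 2 of them at least 2-fold. Of all 10768 genes with at least 50 UMI, 5712 were lower, and 0.269% were at least 2-fold lower. The list's median log2 ratio was -0.26, beside -0.01 over all genes. B2m, the shared light chain, was read at 273 CPM (266 to 279) against 142 CPM (139 to 146), and the heavy chains H2-K1 and H2-D1 at 220 against 147 CPM and 236 against 148 CPM. Nlrc5, the transactivator of this set, was read at 1.97 against 0.290 CPM, and H2-Q4 at 13.04 against 5.48 CPM. The heavy chain genes are close copies that may share reads. The peptide transporter Tap1 stood at 39.2 against 26.8 CPM, and Psmb10, Calr and Pdia3 were the 3 slightly higher genes. B2m was also lower in the other LK cells (log2 ratio -0.88) and in P0 erythroid cells (-0.79).

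Ifnar1 and Ifnar2 encode the receptor of type I interferons, and Tyk2 and Jak1 its kinases. Ifnar1 stood at a log2 ratio of -0.19 (-0.38 to -0.00), Ifnar2 at -0.05, Tyk2 at 0.00 and Jak1 at 0.04. Socs1, an inhibitor of cytokine receptors, was higher in Ifnar-/- erythroid cells, with 136 UMI in 88 cells against 34 UMI in 24 cells, a log2 ratio of 1.03 (0.50 to 1.64). Without marked doublets its ratio was 0.95, and it was 1.60 in Xist-only and 0.77 in Y-only cells. The ratio of Socs1 was -0.10 in the other LK cells and -0.15 in P0 erythroid cells.

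The erythroid lists had median ratios near those of all genes between the genotypes. No gene of the transcription factor list (22 tested), the heme list (16), the membrane list (25) or the iron list (15) was 2-fold apart, which is near the background of 0.436% of all genes, and the list medians were -0.08, 0.03, -0.02 and 0.05 beside -0.01 over all genes. Of 18 genes of erythropoietin and Kit signalling, Socs1 was the 1 that was 2-fold apart, and without marked doublets its log2 ratio was 0.95. Gata1 was read at 117 CPM (113 to 122) against 111 CPM (108 to 114), Epor at 82.7 against 79.8 CPM and Tfrc at 304 against 282 CPM. Smaller differences beyond counting error were seen for Gata2 (log2 ratio -0.38, -0.45 to -0.31), Kit (-0.32, -0.37 to -0.27), Jak2 (-0.35, -0.46 to -0.23) and Hemgn, a nuclear regulator of red cells (-0.39, -0.46 to -0.31). In the other LK cells the same 4 ratios were -0.08, -0.15, -0.08 and 0.09. Within the P14 erythroid cells Kit stood at -0.09 in Xist-only and -0.46 in Y-only cells, and in P0 erythroid cells at -0.02. Rps28, a ribosomal protein gene, stood at -0.49 in erythroid cells, -0.47 in the other LK cells and -0.62 in P0 erythroid cells.

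The higher genes named by the rule were Metrnl, Gm26885, Pf4, Nlrp6, Cavin2, Dqx1, Gda, Cda, Tuba4a and Gm29677. Metrnl, a secreted relative of meteorin, gave 41 UMI in 32 Ifnar+/- cells and 246 UMI in 159 Ifnar-/- cells, or 1.64 and 5.10 CPM, a log2 ratio of 1.62 (1.15 to 2.15). It stood at 1.35 in Xist-only cells and 1.51 in Y-only cells, where the rule required the same sign. In the other LK cells it stood at 0.50 and in P0 erythroid cells at 0.32. Tuba4a, an alpha tubulin, was read at 125 against 202 CPM, a log2 ratio of 0.70 that was 0.66 in the other LK cells and 0.02 in P0 erythroid cells. Nlrp6, an inflammasome sensor, gave 33 UMI in 24 cells against 177 UMI in 91 cells. In P0 erythroid cells the log2 ratio was -0.44 for Nlrp6, -0.46 for Cavin2, -1.32 for Pf4 and -1.02 for Dqx1. There it was -0.06 for Gda, -0.08 for Gm26885, 0.28 for Cda and 0.13 for Gm29677. Dqx1 and Gda stood at -0.50 and -0.33 in the other LK cells, where the other named genes had positive ratios.

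Pf4, the platelet chemokine, showed how few cells can set a ratio. It gave 134 UMI against 642, a log2 ratio of 1.30, but 287 of the 642 lay in 1 cell. Without the highest cell of each library the ratio was 0.73, and without cells marked as doublets at the expected rate it was 0.13. Gm26885 gave 17 UMI in 4 cells, 14 of them in 1 cell, against 116 UMI in 10 cells, and its log2 ratio was 1.78 with all cells and 3.44 without the highest cell of each library. Cavin2, a caveolar protein of the megakaryocyte lineage, gave 59 UMI in 23 cells against 267 UMI in 60 cells, and its log2 ratio without marked doublets was 1.13. The summed megakaryocyte list, which includes Pf4, stood at 73.1 and 83.7 CPM in these cells, and its part in the Cavin2 difference was not tested.

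The P14 erythroid cells were also set against the 565 and 625 P0 cells that passed the rule, which are the part of the P0 erythroid cells with high Klf1 plus Car1. Of 10484 genes, 260 (2.48%) were at least 2-fold higher at P14 in both genotypes and 201 (1.92%) at least 2-fold lower, 4.4% in all. The labels name no organ, so organ and age cannot be told apart. The sex mix differed as well. Among erythroid cells with RNA of only Xist or only Y-linked genes, 25.7% and 31.0% were Y-linked at P0. At P14 the shares were 67.0% and 40.3%. Genes of the X chromosome other than Xist and Tsix were kept, among them Tceal3 and Nhsl2 below. The part of sex in the age differences was not tested. Both ages' cells were chosen by Klf1 and Car1, and Car1 was read at 1878 and 1673 CPM at P14 against 991 and 1051 CPM at P0. With the rule at 3 or more per 10000, which takes in more of the P0 cells, 617 genes were 2-fold apart, and 426 of the 461 were among them. The part of the age differences that comes from which cells the rule takes at each age was not tested. Both genotypes' values are given in the order Ifnar+/-, Ifnar-/-.

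A few iron and early progenitor genes were higher at P14. Tfrc was read at 304 and 282 CPM against 86.9 and 81.6 CPM at P0, and Slc40a1 at 34.3 and 30.9 CPM against 12.3 and 12.4 CPM. They were the 2 of 15 iron genes past 2-fold, beside 2.48% of all genes higher. Of 19 early progenitor genes, 3 were higher and 1 was lower, beside 2.48% and 1.92% of all genes. Gata2 was read at 110 and 84.5 CPM against 36.5 and 34.2 CPM, Angpt1 at 43.2 and 38.0 CPM against 12.7 and 9.82 CPM, and Slamf1 at 21.1 and 18.8 CPM against 9.03 and 6.74 CPM. CD150 tag medians of 338 and 265 stood against 109 and 93, in the same direction as Slamf1. The lower gene was Itga2b, at 7.74 and 8.26 CPM against 21.8 and 19.6 CPM.

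Among membrane genes, Aqp1 was higher at P14 and Sptb, Aqp3 and Slc2a1 were lower, of 25 tested. The 1 higher gene is near the 2.48% of all genes that were higher, and the 3 lower ones stand beside 1.92%. Aqp1 was read at 278 and 248 CPM against 98.9 and 109 CPM. Sptb, or beta spectrin, was read at 10.6 and 10.3 CPM against 42.6 and 45.7 CPM, and Slc2a1 at 2.05 and 2.55 CPM against 9.28 and 12.4 CPM. Of the transcription factors, Cited4 was the 1 past 2-fold, at 40.4 and 42.0 CPM against 121 and 141 CPM. No heme gene of 16 was 2-fold apart in both genotypes. For the transcription factors and the heme genes these counts are near the 4.4% of all genes. Cpox was read at 226 and 255 CPM against 430 and 512 CPM.

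The genes farthest below their P0 level were Ndufa4l2, Trnp1, Stfa1, Ptpru, 8430426J06Rik, Egln3, Evc2, Cstdc5, Fjx1 and 0610040J01Rik. Ndufa4l2, a mitochondrial protein known from the response to low oxygen, was read at 109 and 188 CPM at P0, in 333 and 398 cells, and at 0.201 and 0.0622 CPM at P14. Egln3, a prolyl hydroxylase of the same response, was read at 31.4 and 38.8 CPM at P0 and at 0.441 and 0.996 CPM at P14. Trnp1 was read at 21.8 and 26.9 CPM at P0 and at 0.120 and 0.207 CPM at P14. A list of genes linked to fetal blood cells was chosen with earlier results of these data known, so its count is a description. Of its 7 tested genes, Lin28b, Hmga1 and Ndufa4l2, which is named above, were 2-fold lower at P14, beside 1.92% of all genes. Lin28b, an RNA-binding regulator of fetal identity, was read at 1.97 and 2.16 CPM against 24 and 23.04 CPM. The cytokine inhibitors Socs1 and Socs2 were lower too, Socs1 at 1.36 and 2.82 CPM against 14.7 and 13.3 CPM.

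The genes farthest above their P0 level were Tceal3, Cpne2, Fosb, Hpn, Spon2, Zg16, Nhsl2, Chst10, Gm16152 and Aff3. Cpne2, a calcium-dependent membrane-binding protein, was read at 39.4 and 31.6 CPM against 2.47 and 2.02 CPM. Aff3, a transcription elongation factor, was read at 27.8 and 26.5 CPM against 2.97 and 3.21 CPM, and Hpn, the protease hepsin, at 15.7 and 15.1 CPM against 1.04 and 1.03 CPM. Tceal3 had no UMI at P0 and 2.25 and 1.93 CPM at P14. Of 12 immediate early genes, Fos, Fosb, Jun and Btg2 were 2-fold higher, beside 2.48% of all genes. Fos was read at 20.9 and 20.6 CPM against 1.04 and 2.89 CPM.

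The interferon list differed with age by genotype. In Ifnar+/- erythroid cells the P14 level was the lower one for 38 of 60 list genes, and the median log2 ratio of P14 over P0 was -0.18. In Ifnar-/- erythroid cells 44 of 48 were higher at P14, with a median of 0.74, beside medians over all genes of 0.09 and 0.10. Isg15 was read at 4.09 CPM at P14 against 16.2 CPM at P0 with the receptor, and at 0.249 against 0.160 CPM without it. The values without the receptor rest on 12 and 5 UMI with overlapping intervals, and the 5 lay in 1 cell. Lgals3bp was read at 48.1 CPM at both ages with the receptor, and at 24.1 against 2.79 CPM without it. These 2 age comparisons use the same 4 libraries as the genotype comparisons above and add no independent libraries to them.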

How the data were processed

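Gene and antibody tag counts of single cells were used as the authors deposited them, 1 sparse matrix per library with 32285 genes and 10 tags. Libraries were made with the 10x 3' method per the labels' protocols. The submitters' processing notes name Cell Ranger 6.0.1 and mm10, while the matrices name Cell Ranger 4 per the file headers. Filters on barcodes before deposit are not given in the sources used here.

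From these counts, barcodes with at least 7500 gene UMI and at most 10% mitochondrial UMI were kept as cells, and cells with Klf1 plus Car1 at 5 or more per 10000 were taken as erythroid. The members and gene lists were chosen with earlier results of these data known. UMI were summed per library and cell set, given as CPM with exact Poisson 95% intervals, and compared as log2 ratios after 0.5 counts were added, with an exact conditional binomial interval. A gene needed 50 UMI in at least 1 of the sets compared, or 20 over both in a count over the interferon and class I lists of the genotype and age results, and counted as different at 2-fold. Of 455 genes in 33 lists, 449 were matched by symbol. Ahsp, Mfrn1, Mx1, Mx2 and Oas1b had no match, and Ddit3, which has 2 identifiers, was left out.

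Named genes were, for erythroid against other cells, the 15 higher and 10 lower with the largest smaller log2 ratio over both libraries. By genotype they were the 10 in each direction whose interval lay farthest from no difference, with the same sign of the ratio in Xist and in Y-linked cells. For a gene without UMI in one sex, as Ccl5, that sign comes from the added counts alone. By age they were the 10 in each direction with the largest smaller ratio over both genotypes. Xist, Tsix, Y-linked and mitochondrial genes were left out of these, and other genes of the X chromosome were not. Other genes are named as list members.

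Scrublet at its own threshold marked 0.871% and 0.772% of the P14 LK cells, 10 and 15 of them erythroid. At a rate of 0.8% per 1000 cells 12 and 47 erythroid cells were marked, and all were kept except in an alternative. Free RNA was read from barcodes of at most 100 UMI. For cell cycle shares each cell was thinned to 2000 UMI and needed 3 list UMI. Python 3.11.15, numpy 2.4.6, scipy 1.17.1, pandas 2.3.3, scanpy 1.11.5 and matplotlib 3.10.9 were used, and TMM factors came from edgeR 4.0.16, with no count model. The comparison steps were tested on simulated data. Alternatives changed the cell filters, the rule, doublets, sex, scaling, added counts, gene minimum and free RNA.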

Additional observations from a re-analysis of the deposited data

Results flagged for a closer look

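The immediate early list differed between the ages in the direction of its genotype difference. Over 12 genes, among them Fos, Jun and Btg2, the median log2 ratio of Ifnar-/- over Ifnar+/- was -0.21 in P14 erythroid cells and 0.46 in P0 erythroid cells. Each value comes from 1 library per genotype and age, and the difference between them was not tested.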

How the results depend on the processing

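No paired analysis was possible because each group had 1 library, so no library could be left out either. The share difference of 3.91 points was 6.41 in Y-linked cells and 2.43 with Klf1 plus Car1 at 10 or more. The 47 genes 2-fold apart by genotype (18 higher, 29 lower) became 74 in Y-linked cells (9 and 65), 61 in Xist cells (47 and 14), 70 with free RNA subtracted (41 and 29), 1 with 5 CPM added, 13 with a minimum of 200 UMI and 350 with a minimum of 10 UMI (180 and 170). Of the 47 genes, 15 were among the 61 and 23 among the 74, and which direction held more genes depended on the setting. Genes could pass the UMI minimum through the larger Ifnar-/- set alone, so these genotype counts do not show which direction was more common. The 461 genes by age (260 higher, 201 lower) became 115 with 5 CPM added (54 and 61), 216 with 200 UMI and 794 with 10 UMI, and the 2549 genes between erythroid and other cells became 843 with 5 CPM added. The interferon median of -0.68 was -0.39 with 5 CPM added and -3.58 over the 8 genes of a core list with enough UMI, and it was negative under every setting run. The mitotic share difference of 1.04 points reached 4.38 with at least 1 list UMI. The count of 6 of 10 tags stayed under 6 settings and was 7 as shares of all tag UMI. Adding 5 CPM shrinks ratios of genes near that level. The cause of the differences between Xist and Y-linked cells was not tested. Several scarce antiviral genes had under 5 UMI in Ifnar-/- erythroid cells, so their ratios have wide intervals.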
